A study of Homo sapiens with 8 samples.

Results

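RNA that came down with the translation initiation factor subunit eIF3d in cells kept without glucose was compared with the input RNA of the same cells. The comparison covered 9858 of the 57978 genes in the deposited table, those with a mean RPKM (reads corrected for exon length and sequencing depth) of at least 1 over the 4 libraries, and 7996 of them were nuclear protein-coding genes. The cells were HEK293T, an established human line derived from embryonic kidney, and in all groups they expressed eIF3d fused to HA and to a site that TEV protease cuts. They had spent 48 h in medium lacking glucose, with 10% dialyzed fetal bovine serum, before protein and RNA were crosslinked with ultraviolet light of 254 nm. The tagged protein was captured on anti-HA beads and set free with TEV protease, and libraries of polyadenylated RNA were made from 2 inputs and 2 immunoprecipitates (IPs). A matching set of 2 inputs and 2 IPs came from cells grown in complete medium (DMEM and 10% fetal bovine serum) and is used here only beside the glucose-free values. No IP from untagged cells was analysed here, so the RNA that beads hold without eIF3d has no value of its own. Replicates carry numbers in the labels but nothing there calls them separate cultures, so the spread behind the p-values may be technical.

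eIF3 is the large scaffold that joins the small ribosomal subunit to an mRNA at the start of translation. Its subunit eIF3d can itself hold the 5′ cap of some mRNAs, the JUN mRNA being the known case, and so can take over from eIF4E, the usual cap-binding protein. When nutrients are short, mTORC1 is turned down, the 4E-BP proteins block eIF4E, and mRNAs that begin with a cytosine followed by a run of pyrimidines (terminal oligopyrimidine, or TOP, mRNAs, among them nearly all ribosomal protein mRNAs) are the ones most held back.

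The first transcribed bases of 8 genes are shown because the 2 ends of the comparison differed there. The windows are 30 bases of RefSeq sequence (GRCh38.p14), read 5′ to 3′ on the strand of the gene, with 15 bases before the annotated start, and the capitals mark the first 5 transcribed bases. The first 4 genes were ribosomal protein genes among the largest falls, followed by 3 of the largest rises and by JUN.
RPL39 (chrX:119791616-119791645, minus strand): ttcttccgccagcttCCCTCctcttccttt
RPS21 (chr20:62387088-62387117, plus strand): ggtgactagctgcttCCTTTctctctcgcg
RPS27 (chr1:153990747-153990776, plus strand): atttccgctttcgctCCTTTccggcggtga
RPL12 (chr9:127451392-127451421, minus strand): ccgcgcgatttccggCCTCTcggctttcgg
MYH9 (chr22:36387953-36387982, minus strand): ggtgcggtgaggcgcGCAGAtcaccgcggt
PPP1R9B (chr17:50150663-50150692, minus strand): tcatttttttttttaAAGCGggattaactg
KMT2D (chr12:49060780-49060809, minus strand): gggcgggatccctccGCCGCtccgctccaa
JUN (chr1:58784033-58784062, minus strand): tcgggctggataaggGCTCAgagttgcact
The starts are those of RefSeq, while gene spans given below are those of GENCODE 29. For RPS21, RPL12, PPP1R9B and KMT2D the RefSeq start lies outside the GENCODE span. All 4 ribosomal protein genes start with C and 4 further pyrimidines, and none of the other 4 does.

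That start, a C at the first base followed by 4 bases that are each C or T, was looked for on the transcribed strand at the RefSeq start of every gene that had one. It was found in 555 of 6542 tested nuclear protein-coding genes (8.48%), and in 5.14% of the 27305 genes of the RefSeq promoter table. Among the cytosolic ribosomal protein genes it was found in 47 of 64 (73.4%). The genes at least 4-fold lower in the IP held it in 18.1% of cases, or 10.5% once ribosomal protein genes were left out, and those at least 4-fold higher in 5.53%. Outside the ribosomal protein genes the 508 genes with such a start had a median log2 change of -0.02, against 0.05 in the 5970 genes without it. These are descriptions of letters at annotated starts, and the starts used by these cells were not measured.

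The libraries differed in depth and in make-up. The inputs held 33996875 and 43400888 reads and the IPs 8656923 and 12034189, so that 3 reads, taken as the limit of detection, equal 0.0691 to 0.347 RPM, which covers counting error only. The 2 mitochondrial rRNAs took 49.4% and 50.7% of input reads but 0.613% and 0.399% of IP reads, and nuclear protein-coding genes took 27.4% and 28.98% of the inputs and 57.4% and 65.0% of the IPs. Replicates correlated across tested genes with r = 0.993 for the inputs and 0.986 for the IPs. Of 12 genes that mark HEK293T cells, 9 reached 1 RPKM in each input and 12 in each IP. Of 25 markers of other cell types 2 or 3 did so per library, with a summed level of 4.35 to 7.65 RPKM, and ALB and HBB were listed at 0 in all 4 libraries.

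The deposited RPKM of a middling gene was also higher in the IP than in the input, and the part of the make-up in this was not tested. The median over tested genes was 0.913 and 0.974 RPKM in the inputs and 5.82 and 6.78 RPKM in the IPs. Each library was therefore scaled to 1 common median, and every change given below is a log2 difference of scaled RPKM + 1, IP minus input, relative to that median gene. A gene with equal deposited RPKM in both thus counts as lower in the IP, and the added 1 understates the change of low genes. In bulk RNA a smaller share of molecules bound and fewer molecules in the cell fraction sampled cannot be told apart.

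Most genes differed between the IP and the input by this measure. limma called 81.3% of all tested genes, and 90.9% had input and IP libraries that did not overlap. It called 3881 genes higher in the IP (39.4% of those tested) and 4138 lower (42.0%) at a Benjamini-Hochberg adjusted p under 0.05. The changes reached at least 4-fold in 318 of the higher genes (3.23%) and in 1311 of the lower (13.3%), and with voom weights on recovered reads in 1384 (14%) and 1700 (17.2%). Of the nuclear protein-coding genes 80.3% were called: 42.1% were higher and 38.2% lower, 3.41% at least 4-fold higher and 7.83% at least 4-fold lower, and these shares are the background for each gene group below. The filter matters for the higher genes: 5078 of the 9858 genes had an input mean under 1 RPKM and were tested because of their IP level. Among the 4650 genes with a mean of at least 1 RPKM in both, 657 were higher and 3391 lower. These 2 counts, and not the shares above, are the background wherever members with at least 1 RPKM in both means are counted below. limma with voom weights on the recovered reads called 82.0%, 39.5% higher and 42.5% lower, and 3811 of the higher and 4098 of the lower genes were shared. With RPKM as deposited, which raises the median change by 1.65, 8369 genes were higher and 747 lower.

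**Figure D1:**
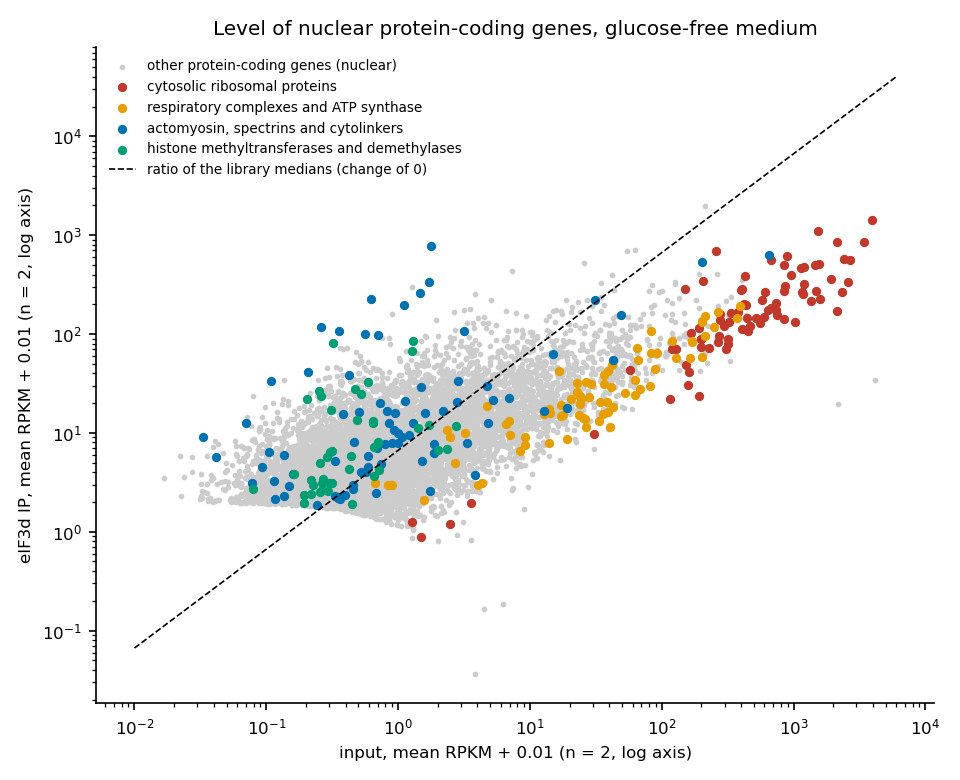
Mean RPKM of each tested nuclear protein-coding gene in the 2 inputs (horizontal) and the 2 eIF3d IPs (vertical), on log axes after adding 0.01, with 4 gene groups in colour. The dashed line is the ratio of the library medians, a change of 0. Ribosomal protein genes (red) and most respiratory genes (orange) lie under it at the right, and the actomyosin genes with the highest IP levels (blue) lie above it at the left, with MYH9 at 1.77 RPKM in the input mean and 775 in the IP mean.

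The mRNAs of cytosolic ribosomal proteins were depleted from the eIF3d IP. All 47 genes of the large subunit and all 33 of the small subunit were lower, with median changes of -4.10 and -4.32, and both medians stayed below 0 under each scaling that was tried. At least 4-fold falls were seen in 44 and 32 of them, where the background of such falls was 7.83%. Of the 20 nuclear protein-coding genes with the largest falls, 16 were ribosomal protein genes. All 47 and all 33 were still called lower when any 1 of the 4 libraries was left out. The fall was also present with glucose: in complete medium the 2 medians were -4.70 and -5.09 in a fit of all 8 libraries. The difference between media was not tested for lists.

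RPL39, which encodes a small protein of the peptide exit tunnel (chromosome X, 119786504 to 119791643, minus strand), had 2106 and 2159 RPKM in the inputs and 178 and 162 in the IPs. It fell by 6.36 ± 0.15 on the log2 scale (SE, limma adjusted p = 3.62e-06). RPS21, a small subunit protein (chromosome 20, 62387116 to 62388520, plus strand), had 2118 and 2528 RPKM in the inputs and 262 and 267 in the IPs, a fall of 5.85 ± 0.14. Input and IP libraries lay far apart for both genes, while each pair of replicates stayed close.

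RPS27 had 2452 and 2698 RPKM in the inputs and 309 and 367 in the IPs, and RPL12, part of the stalk base where elongation factors dock, had 991 and 1044 against 126 and 140.4. The smallest falls within the group were those of the long members. RPL3, which lies beside the peptidyl transferase centre, had 263 and 251 RPKM in the inputs and 637 and 739 in the IPs, and was lower by 1.31 ± 0.11 only relative to the median gene (limma adjusted p = 0.000146). RPL4 and RPL5 stood at -1.80 and -2.01. Across the members, coding length and change had a Spearman rho of 0.61 in the large and 0.55 in the small subunit.

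The shift showed in the make-up of the mRNA pool. Ribosomal protein genes made up 57.4% ± 0.0990 of nuclear protein-coding reads in the inputs and 9.42% ± 0.0555 in the IPs (SD, n = 2). In the inputs 50% of these reads came from 48 and 47 genes, in the IPs from 787 and 837. The first places in the input were held by RPS2, RPLP1 and RPL13, at 3.35%, 2.21% and 1.84% of reads. In the IPs EEF2, the translocation factor of elongation, took 1.22% and 1.34%, and PRRC2B 0.536% and 0.658%. MYH9 took 1.78% in IP replicate 1, the largest share there, and 0.567% in replicate 2.

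Other short mRNAs of the translation machinery and of mitochondria were lower as well. For respiratory complex I, which feeds electrons from NADH into the chain, 33 of 34 tested genes fell, with a median of -2.66, and NDUFS1, at -0.29 (limma adjusted p = 0.0684), did not pass, although it did with voom weights (-0.53, adjusted p = 0.0196). Complexes II, III and IV fell in 24 of 24 genes (median -3.24) and ATP synthase in 18 of 18 (median -2.74), and these 3 medians stayed below 0 under each scaling. In complete medium the 3 medians were -3.63, -3.55 and -3.21. NDUFB11, an accessory subunit of complex I, had 195 and 207 RPKM in the inputs and 55.4 and 60.9 in the IPs, a fall of 4.47 ± 0.09 (limma adjusted p = 3.62e-06), and its groups did not overlap. COX5B, a subunit of cytochrome c oxidase, fell by 4.20 ± 0.10 and ATP5F1E, of the ATP synthase stalk, by 3.95 ± 0.11.

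Mitochondrial ribosomal protein mRNAs fell in 72 of 75 genes with a median of -2.02, which turned to 0.32 with RPKM as deposited. MRPL41 stood at -4.12 ± 0.09, and the 1 gene that rose was MRPL53, at 0.46 ± 0.13 (limma adjusted p = 0.0179), a call that was lost when input replicate 1, IP replicate 1 or IP replicate 2 was left out (adjusted p = 0.0726, 0.0705 and 0.0859). The import machinery fell in 33 of 39 genes, TOMM7 of the outer membrane translocase by 4.40 ± 0.11, with a median of -1.54 that was 0.89 as deposited. Enzymes of the TCA cycle fell in 25 of 29, SDHB by 3.36 ± 0.08 and IDH3G by 2.93 ± 0.09, and PDP2, a phosphatase that activates pyruvate dehydrogenase, rose by 0.44; the median of -0.85 was 1.05 as deposited. The 13 mRNAs encoded in mitochondria, which have no cap and are not read by eIF3, were all lower with a median of -4.52, below 0 under each scaling. MT-CO2 had 8685 and 10175 RPKM in the inputs and 596 and 756 in the IPs.

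Subunits of other protein complexes, and tubulins, followed the same direction. Proteasome subunits fell in 29 of 30 genes (median -1.84), PSMB6 by 3.56 ± 0.11 and PSMB3 by 3.41 ± 0.10, and the chaperonin CCT, which folds actin and tubulin, in 8 of 8 (median -1.58). Tubulins and their folding factors fell in 18 of 21 genes (median -1.46), led by the prefoldin subunits PFDN5 at -3.80 and PFDN4 at -3.00. The Sm and LSm proteins of splicing and decay fell in 20 of 22 (median -1.65), SNRPD2 by 4.21 ± 0.11, and the RNA exosome in 13 of 16 (median -1.38). With RPKM as deposited all 5 of these medians were above 0, from 0.70 to 1.08, and that of the chaperonin was 0.09 with quantile normalization.

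Large and small members of 1 enzyme could part. POLR2A, the catalytic subunit of RNA polymerase II, had 1.48 and 1.53 RPKM in the inputs and 65.2 and 55.4 in the IPs, a rise of 2.31 ± 0.16 (limma adjusted p = 5.48e-05). POLR2L, a small subunit of all 3 nuclear polymerases, had 109 and 117 RPKM in the inputs and 70.9 and 90.4 in the IPs, a fall of 3.19 ± 0.10. In the polymerase list 6 of 27 genes rose and 15 fell. Among glycolytic and pentose phosphate enzymes 24 of 34 fell, with GAPDH at 318 and 312 RPKM in the inputs and 121 and 140.0 in the IPs (-3.98 ± 0.10). The regulatory enzymes PFKFB3, at 1.49 ± 0.13, and HK2, at 1.17 ± 0.09, rose; the list's median of -0.72 was 1.45 as deposited.

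**Figure D2:**
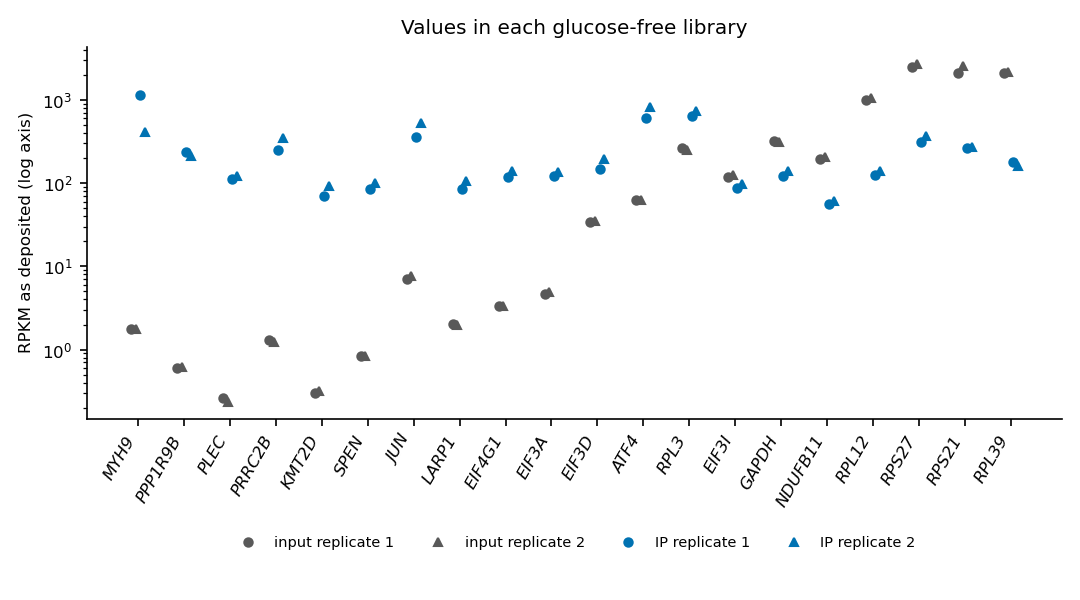
Deposited RPKM (log axis) of 20 genes in each glucose-free library, grey for inputs and blue for IPs, circles for replicate 1 and triangles for replicate 2. MYH9 to ATF4 and RPL3 lie higher in the IPs in deposited RPKM, EIF3I to RPL39 lower, and the replicates of MYH9 (1140.0 and 409.7 RPKM in the IPs) stand furthest apart.

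The largest rises included many mRNAs of cytoskeletal proteins. Of the 20 nuclear protein-coding genes that rose most, 9 were of the actomyosin and spectrin lists, and 15 had an input mean under 1 RPKM. Their changes ran from 3.42 to 5.58. After each library's trends on merged exon length and GC content were removed, 20 of 20 stayed past the threshold, at 2.35 to 4.83. Merged exon length, the length in that fit throughout, counts every annotated exon of a gene and is not the transcript length.

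MYH9, which encodes a nonmuscle myosin II heavy chain (chromosome 22, 36281277 to 36388067, minus strand), had 1.77 RPKM in both inputs and 1140.0 and 409.7 in the IPs. Its rise of 5.58 ± 0.52 (SE, limma adjusted p = 0.000191) was the largest among nuclear protein-coding genes over both IPs, but from IP replicate 2 alone MYH9 stood at 4.73, below PPP1R9B at 4.91, PRRC2B at 4.87 and PLEC at 4.77. PPP1R9B, which encodes spinophilin, an actin-binding partner of protein phosphatase 1 (chromosome 17, 50133735 to 50150630, minus strand), had 0.602 and 0.622 RPKM in the inputs and 239 and 213 in the IPs (5.10 ± 0.14). PLEC, the cytolinker plectin (chromosome 8, 143915147 to 143976734, minus strand), had 0.263 and 0.236 RPKM in the inputs and 112 and 122 in the IPs, a rise of 4.81 ± 0.09. None of these 3 genes had overlapping groups, and the 2 IPs were close for PPP1R9B and PLEC but not for MYH9.

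The actomyosin list as a whole was mixed. Its 66 tested genes were part of 76 listed, and 35 rose, 17 fell and the rest did not pass, with a median of 0.34. DBN1 (drebrin), MYH14 (myosin IIC), ACTN4 (alpha-actinin) and MYH10 (myosin IIB) rose by 4.48 ± 0.43, 4.37 ± 0.42, 4.31 ± 0.43 and 4.13 ± 0.57. The short members TMSB10, a thymosin that binds actin monomers, and MYL12B, a myosin light chain, fell by 2.77 ± 0.12 and 2.66 ± 0.09. Coding length and change had a Spearman rho of 0.74 over the 66 genes. An input mean under 1 RPKM was seen for 34 members, and among the 32 with at least 1 RPKM in both means 11 rose and 16 fell. Of all 4650 such genes 657 rose and 3391 fell.

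Spectrins, ankyrins and cytolinkers rose in 10 of 13 tested genes and fell in 0. SPTAN1, the spectrin alpha chain, rose by 3.63 ± 0.53, at 0.723 and 0.653 RPKM in the inputs and 146 and 49.9 in the IPs. All 13 had an input mean under 1 RPKM. After the length and GC trends were removed 7 rose and 4 fell.

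The replicate spread of this group stood apart from the rest. Over nuclear protein-coding genes 19 were at least 2-fold higher in IP replicate 1 than in IP replicate 2 after scaling, and 0 the other way round. Of the 19, 9 were on the actomyosin list and 2 on the spectrin list, and 0 were among the ribosomal protein genes or the histone methyltransferases and demethylases. The gap was widest for MYH10 at 1.86 (301 and 94.6 RPKM), then SPTAN1 at 1.71 and MYH9 at 1.69 on the log2 scale. In IP replicate 2 alone MYH9 was still higher than the inputs by 4.73 and MYH10 by 3.197. Further genes of the 19 were GSN, IQGAP1, AMOT, CGN, UTRN, SYNE2, MICAL3, MYO6, MYO18A, ACTN1, SPTBN1, DBN1, MYH14, ACTN4 and FBXO34, named because their gap was seen. The actomyosin list took 5.13% of protein-coding reads in IP replicate 1 and 2.62% in replicate 2, against 0.696% and 0.686% in the inputs.

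**Figure D3:**
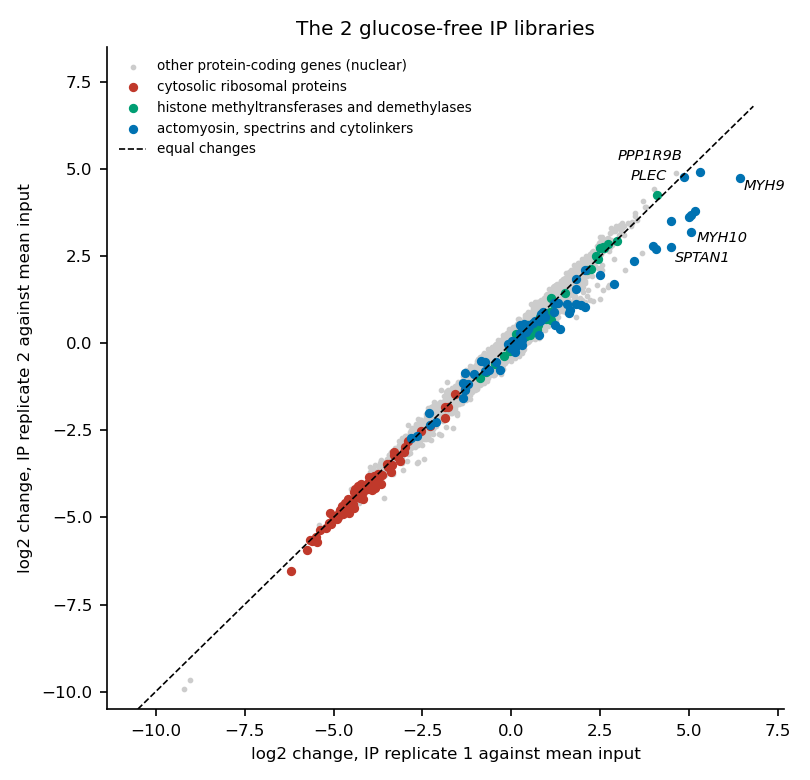
Log2 change against the mean input in IP replicate 1 (horizontal) and IP replicate 2 (vertical) for each tested nuclear protein-coding gene, with 3 groups in colour and the line of equal changes dashed. Ribosomal protein genes (red) and histone methyltransferases and demethylases (green) follow the line, and actomyosin and spectrin genes with rises above about 2 (blue), such as MYH9 and MYH10, lie under it, higher in replicate 1.

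Several genes of chromatin regulators rose with little replicate spread. Histone methyltransferases and demethylases rose in 35 of 44 tested genes and fell in 4 (background 42.1% and 38.2%), with a median of 0.55 that stayed above 0 under each scaling. KMT2D, a histone H3 lysine methyltransferase (chromosome 12, 49018975 to 49059774, minus strand), had 0.297 and 0.318 RPKM in the inputs and 70.6 and 92.8 in the IPs. It rose by 4.17 ± 0.10 (limma adjusted p = 3.62e-06), and the demethylase KDM5C rose by 2.95 ± 0.09. Of the 44 genes 37 had an input mean under 1 RPKM and so were tested because of their IP level, and among the other 7 genes 2 rose and 3 fell. The background covers all nuclear protein-coding genes. It was not counted for genes low in the input alone, so lists made up mostly of such genes, here and below, have no like background. After the length and GC trends were removed 21 rose and 9 fell.

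Acetyltransferase, bromodomain and deacetylase complexes rose in 25 of 38 tested genes and fell in 7, but 26 of them had an input mean under 1 RPKM, and among the 12 with at least 1 RPKM in both means 4 rose and 7 fell. SPEN, a large transcriptional repressor, had 0.847 and 0.827 RPKM in the inputs and 84.7 and 98.8 in the IPs, a rise of 3.53 ± 0.09. HDAC1 and SIRT6, shorter deacetylases, fell by 1.03 each. Chromatin remodellers rose in 26 of 41 and fell in 8, with BICRA at 2.19 and RUVBL2, a hexameric ATPase, at -2.46. An input mean under 1 RPKM was seen for 22 of the 41. Among the 19 with at least 1 RPKM in both means 10 rose and 7 fell. After the trends were removed the acetyltransferase and remodeller lists had 18 and 20 rises against 14 and 11 falls.

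Most transcription factors of the HOX, SOX, FOX and KLF families rose. HOX genes, which pattern the body axis, rose in 22 of 24 tested genes with 1 fall, and SOX, FOX and KLF factors in 32 of 34 with 0 falls. Their medians of 1.05 and 1.04 stayed above 0 under each scaling, and after the length and GC trends were removed 22 and 31 genes still rose. HOXB9 had 3.24 and 3.12 RPKM in the inputs and 152 and 197 in the IPs, a rise of 2.89 ± 0.10 (limma adjusted p = 7.38e-06). FOXK1, a repressor tied to nutrient signalling, rose by 2.97 ± 0.14 and SOX12 by 2.35 ± 0.12. The HOX gene that fell was HOXC9, at -0.83. Of the 24 and 34 genes, 19 and 27 had an input mean under 1 RPKM, and with at least 1 RPKM in both means 4 of 5 and 7 of 7 rose.

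ZNF zinc finger genes, many of them repressors of mobile elements, rose in 101 of 154 tested genes and fell in 26, out of 511 listed. Of the 154 genes 121 had an input mean under 1 RPKM, and with at least 1 RPKM in both means 14 of 33 rose and 15 fell. ZNF703 stood at 3.19 ± 0.11, ZNF865 at 3.15 ± 0.16 and ZNF581 at -2.77. Immediate early genes rose in 18 of 27 and fell in 4. An input mean under 1 RPKM was seen for 15 of them. Among the 12 with at least 1 RPKM in both means 6 rose and 4 fell. JUN, the AP-1 subunit whose cap eIF3d is known to bind, had 6.95 and 7.67 RPKM in the inputs and 357 and 521 in the IPs, a rise of 3.08 ± 0.13 (limma adjusted p = 1.16e-05). The small Maf factor MAFG rose by 3.36 ± 0.09, and the falls were led by ID3 and ID2, inhibitors of helix-loop-helix factors, at -1.40 and -0.76.

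Receptors and their scaffolds were higher in the IP in most tested genes. Wnt and Notch pathway genes rose in 26 of 29 with 2 falls, plexins, semaphorins, ephrins and their receptors in 24 of 27 with 1 fall, and receptor tyrosine kinases in 12 of 12. Their medians of 1.32, 1.22 and 0.87 stayed above 0 under each scaling. CELSR3, a cadherin of planar cell polarity, rose by 3.42 ± 0.09, the Notch ligand JAG2 by 2.82 ± 0.09, and the receptors FGFR3 and IGF1R by 2.19 ± 0.09 and 2.09 ± 0.10. DLL3, another Notch ligand, fell by 1.93. Almost all of these genes were low in the input: 25 of 29, 26 of 27 and 12 of 12 had an input mean under 1 RPKM. With at least 1 RPKM in both means 2 of 4 Wnt and Notch genes rose and 2 fell, and the 1 gene of the plexin list fell. After the length and GC trends were removed 23, 19 and 7 genes of the 3 lists rose and 3, 2 and 1 fell.

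**Figure D4:**
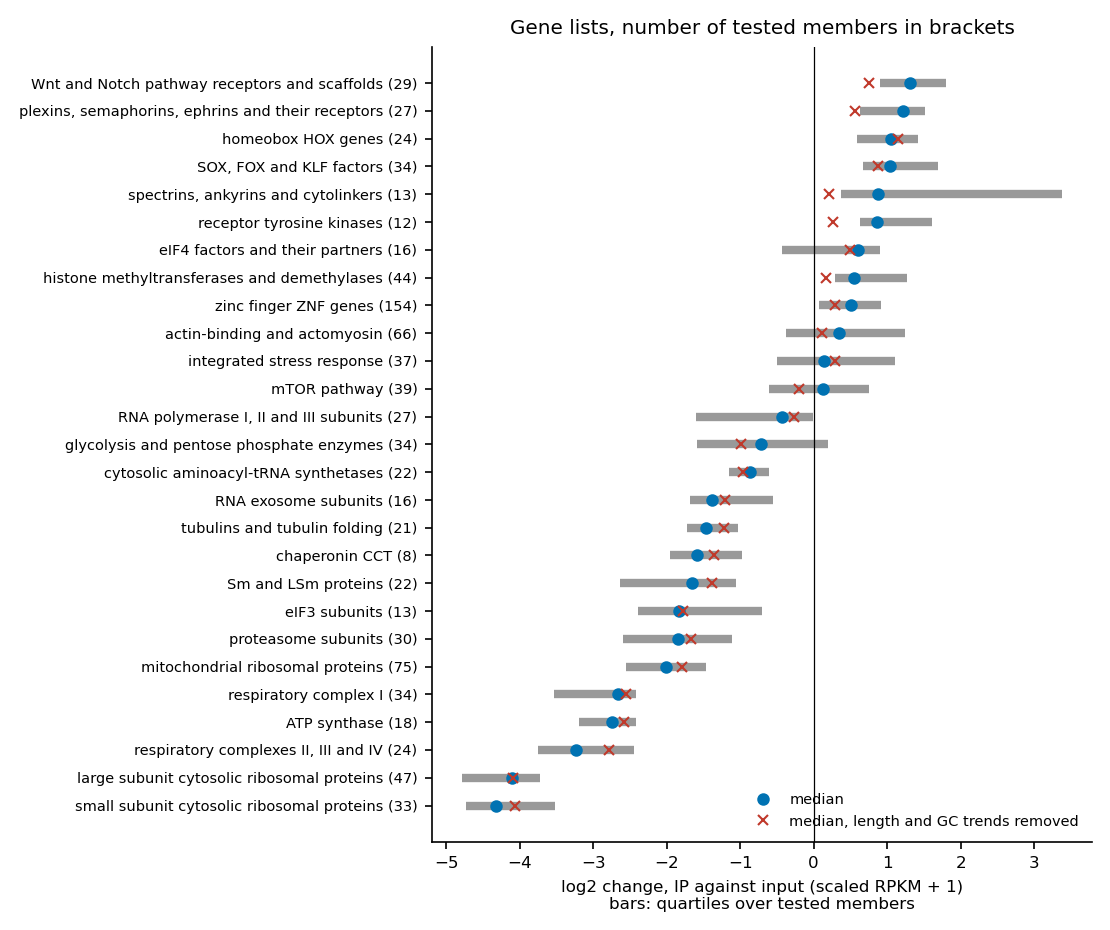
Median log2 change (blue points) and quartiles (grey bars) over the tested members of 27 gene lists, with the number of members in brackets, and the median after length and GC trends were removed (red crosses). Ribosomal and respiratory lists lie lowest, from -4.32 to -2.66, and stay below -2.5 without the trends, while the receptor and histone methyltransferase lists move towards 0.

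The translation factors were split. eIF3 subunits fell in 12 of 13 genes with a median of -1.83, which was 0.71 with RPKM as deposited. EIF3I, a small subunit of the complex, had 119 and 126 RPKM in the inputs and 88.0 and 96.5 in the IPs, a fall of 3.11 ± 0.09 (limma adjusted p = 4.61e-06). EIF3A, the longest subunit and a core scaffold, had 4.64 and 4.95 RPKM in the inputs and 122.7 and 136 in the IPs and was the 1 that rose, by 1.93 ± 0.09. EIF3D itself had 34.3 and 34.99 RPKM in the inputs and 147 and 196 in the IPs, and relative to the median gene it fell by 0.44 ± 0.11 (limma adjusted p = 0.0111). That call was lost without input replicate 1 (-0.41, adjusted p = 0.0671), and the value was 2.26 with RPKM as deposited. Reads of the tagged transgene and of the cell's own EIF3D gene are not separated here.

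eIF4 factors and their partners rose in 11 of 16 genes and fell in 4, with a median of 0.61 that stayed above 0 under each scaling. EIF4G1, the scaffold that bridges eIF4E and eIF3, had 3.31 and 3.35 RPKM in the inputs and 118 and 139 in the IPs, a rise of 2.40 ± 0.09. EIF4EBP1, the inhibitor that mTORC1 keeps off eIF4E, had 153 and 149.6 RPKM in the inputs and 111 and 144 in the IPs, a fall of 2.97 ± 0.11. The IP and input libraries of both genes lay apart after scaling. Factors of the eIF1, eIF2, eIF2B, eIF5 and eIF6 groups fell in 15 of 20 genes and rose in 4 (median -1.002, or 1.15 as deposited), with EIF6 at -2.89 and EIF5B, which helps join the ribosomal subunits, at 1.25.

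Genes of stress granule, P-body and deadenylation factors rose in 23 of 42 genes and fell in 6. PRRC2B, a translation regulator, had 1.31 and 1.23 RPKM in the inputs and 249 and 346 in the IPs, a rise of 4.75 ± 0.12 (limma adjusted p = 3.68e-06), and its paralog PRRC2A rose by 2.78 ± 0.11. LARP1, which binds TOP mRNAs, had 2.01 and 1.98 RPKM in the inputs and 85.1 and 105 in the IPs (2.61 ± 0.09). Of the 42 genes 26 had an input mean under 1 RPKM, and after the trends were removed 14 rose and 11 fell.

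Nutrient-sensing genes moved in both directions. The mTOR pathway list had 17 rises and 14 falls among 39 genes, with a median of 0.12 that was -0.29 with centring after the log and -0.20 with the trends removed. Of the 39 genes 23 had an input mean under 1 RPKM and were tested because of their IP level. Among the 16 with at least 1 RPKM in both means 5 rose and 11 fell, with a median of -1.26. Of all 4650 such genes 657 rose and 3391 fell, with a median of -1.04. ULK1, the kinase that starts autophagy, rose by 2.35 ± 0.09 and RPTOR, the mTORC1 scaffold, by 1.56 ± 0.11, at 0.338 and 0.260 RPKM in the inputs and 9.71 and 12.2 in the IPs. LAMTOR2, of the Ragulator complex on lysosomes, fell by 2.64. MTOR rose by 0.75 ± 0.16 (limma adjusted p = 0.00589, or 0.0635 in the fit of all 8 libraries) and stood at 0.06 after the trends were removed. Of the AMPK and glucose-sensing regulators 16 of 23 rose and 4 fell (median 0.58, or -0.012 with the trends removed); 20 of the 23 had an input mean under 1 RPKM, and of the other 3 genes 1 rose and 2 fell. The list held STK11, the kinase LKB1, at 2.67 ± 0.13, MLXIP, a glucose-responsive transcription factor, at 2.64 ± 0.11, and its partner MLX at -1.77. Casein kinase genes rose in 6 of 8, CSNK1G2 by 2.21 and CSNK1D by 1.91, and CSNK2B, the regulatory subunit of CK2, fell by 1.23 ± 0.09.

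Genes of the integrated stress response rose in 16 of 37 and fell in 11. An input mean under 1 RPKM was seen for 11 of the 37. Among the 26 with at least 1 RPKM in both means 9 rose and 10 fell. The amino acid transporter SLC7A5 had 2.76 and 2.53 RPKM in the inputs and 149 and 186 in the IPs, a rise of 3.06 ± 0.11 (limma adjusted p = 6.58e-06). PPP1R15A, the phosphatase subunit GADD34, rose by 2.82 ± 0.12, and PHGDH, of serine synthesis, fell by 1.49. ATF4, the transcription factor of this response, had 62.0 and 63.1 RPKM in the inputs and 612 and 818 in the IPs, a rise of 0.76 ± 0.11 (limma adjusted p = 0.00147, or 0.129 in the fit of all 8 libraries). BTG1, an antiproliferative cofactor, rose by 0.67 ± 0.08, or 0.0097 with centring (adjusted p = 0.909), and EIF2AK4, the kinase GCN2, at 0.22 ± 0.10, did not pass (adjusted p = 0.0830).

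Length went with the change across all nuclear protein-coding genes. Spearman rho over the 7996 genes was 0.58 for transcript length, 0.47 for coding length, 0.39 for the 3′ UTR, 0.21 for the 5′ UTR and 0.20 for GC content. These are correlations across genes of the same 4 libraries, and genes are not independent replicates. In the shortest decile by coding length, 72 to 471 bases, 16% of genes rose and 72.8% fell, and in the longest decile, 3261 to 26769 bases, 78.6% rose and 2.25% fell. The genes at least 4-fold higher had a median coding length of 2184 bases and a 3′ UTR of 1556, and those at least 4-fold lower 507 and 248.5, where all genes had 1269 and 962. Within the lists of protein-coding genes rho between coding length and change was above 0 in 64 of 67, with a median of 0.43.

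**Figure D5:**
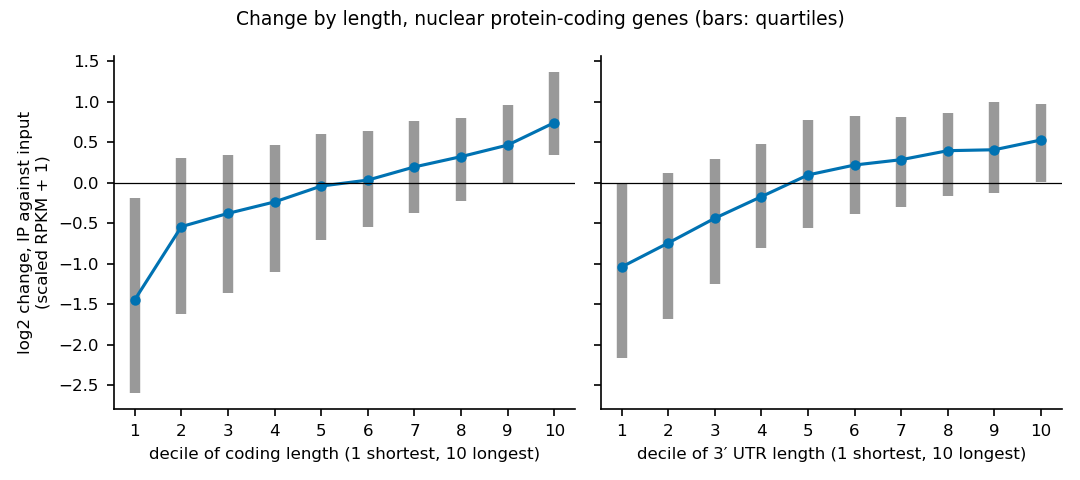
Log2 change of nuclear protein-coding genes by deciles of coding length (left) and of 3′ UTR length (right), as medians (points) and quartiles (bars). The median rises from -1.45 to 0.74 over coding length and from -1.04 to 0.53 over 3′ UTR length.

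Level went with the change too. The input RPKM and the change had a rho of -0.70, which shares the input value on both sides. The genes at least 4-fold lower had median levels of 23.1 (input) and 20.2 RPKM (IP), and those at least 4-fold higher 0.436 and 28.98 RPKM. Length, GC content and input level are bound up with each other across these genes, and their parts in the change were not told apart beyond the fit with the length and GC trends removed. The length in that fit was merged exon length, with a rho of 0.44, against 0.58 for transcript length. The trend on transcript length itself was not removed. That fit called 3564 genes higher and 4154 lower.

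Noncoding RNAs differed by type. lincRNAs rose in 109 of 187 genes (58.3%) and fell in 45, and antisense RNAs rose in 122 of 227 (53.7%) and fell in 55. Meanwhile snRNAs fell in 50 of 55 and snoRNAs in 52 of 57. Over all tested genes 39.4% rose and 42.0% fell. All 10 tested long noncoding RNAs of known name had an input mean under 1 RPKM and were tested because of their IP level. That share was not counted for lincRNAs and antisense RNAs. MT-RNR2 and MT-RNR1, the mitochondrial rRNAs, stood at -9.61 ± 0.32 and -8.99 ± 0.31, and the nuclear genes MTRNR2L12 and MTRNR2L8, near copies of MT-RNR2 whose reads may belong to it, at -9.56 and -9.36. BCYRN1, an RNA polymerase III transcript with many Alu relatives, fell from 514 and 491 RPKM to 12.1 and 7.48, and RNA polymerase III transcripts fell in 14 of 15 tested genes. After the length and GC trends were removed 8 of these 15 fell and 1 rose. The list of small nucleolar and Cajal body RNAs went from 56 falls and 0 rises among 60 genes to 24 and 7. IP counts were low for some of them, such as SNORD46 at 4 and 1 reads. NORAD, a long noncoding RNA that binds Pumilio proteins, had 0.457 and 0.479 RPKM in the inputs and 45 and 55.1 in the IPs, a rise of 3.201 ± 0.09 (limma adjusted p = 3.85e-06). AL139287.1, VPS9D1-AS1 and AP000525.1 rose by 3.70, 3.24 and 3.14. They overlap INTS11, VPS9D1 and DUXAP8, so their reads cannot be assigned with certainty.

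The same members were read in complete medium, in a fit of all 8 libraries, in which the test of the difference between media was chosen after the data were seen. Of the 20 largest rises 20 had a change above 0 there and 19 were called higher, and of the 20 largest falls 20 were called lower. The change was larger without glucose in 9 of the 20 rises by the test of the difference itself, where 2.12% of all tested genes were higher and 3.02% lower by that test. The 20 rises were picked by their glucose-free change, which is 1 side of that difference. A share above that of all genes was thus favoured in advance. In complete medium MYH9 had 7.84 ± 5.81 RPKM in the inputs and 95.2 ± 7.95 in the IPs (SD, n = 2), a change of 2.08, and the difference was 3.504 ± 0.77 (limma adjusted p = 0.0390). For JUN, with 8.60 ± 4.84 RPKM in the inputs and 239.97 ± 11.3 in the IPs of complete medium (SD, n = 2), the difference was -0.10 ± 0.47 (adjusted p = 0.904). Complete IP replicate 2 held 10.6% mitochondrial rRNA, against 1.26% in replicate 1, and its part in these differences was not tested.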

How the data were processed

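Expression values were deposited by the authors as RPKM per gene, 1 table per medium, with GRCh38, cutadapt, HISAT2 and SAMtools named in the submitters' processing notes; for their versions, the read counter, the annotation and strand use the sources used here give nothing. Identifiers were matched to GENCODE release 29, 57978 of 57978, and 4 identifiers with several symbols were used once. Exon lengths turned 97.8% to 98.0% of low values (up to 50 reads) of the glucose-free libraries into whole reads within 0.02, which gave the depths. The tested genes averaged 1 RPKM or more across the 4 glucose-free libraries.

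RPKM was scaled to 1 median per library before a pseudocount of 1 was added and log2 taken. limma 3.58.1 (R 4.3.3, eBayes with an intensity trend) fitted IP against input on 2 libraries each, and p-values were adjusted by Benjamini-Hochberg over all tested genes. For a single gene, 2 libraries against 2 allow no exact two-sided permutation p smaller than 0.333. On simulated reads for this comparison, with 200 changed genes per fold among those tested, the fit recovered 77.5%, 97.5% and 98.5% of 2-, 4- and 8-fold changes and called 0.135% to 0.197% of unchanged genes. Centring after the log called 66.7% to 66.9% of the unchanged genes and is given as an alternative. The simulated libraries differed by the same scale factors that the main fit divides out. That favoured the main fit in advance, so the simulation cannot decide between the 2 scalings. The simulation raised as many genes as it lowered, so its median gene did not change. Its dispersion was 0.005 for inputs and 0.00718 for IPs. In the data 81.3% of tested genes were called, so these rates do not carry over to those calls.

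The members, the 77 gene lists and the rule for named genes were chosen with earlier results of these data known. Named are the 20 largest rises and falls among nuclear protein-coding genes called in the limma and the voom fit without overlap, 5 of each among other genes, 2 of each per list, the 10 largest shares of protein-coding reads in each group, 8 genes of the study (JUN, EIF3D, LARP1, RPTOR, MTOR, ATF4, EIF2AK4, BTG1) and the 5 widest IP replicate gaps. RPL4, RPL5, NDUFS1, the genes of the replicate gap beyond 5 and those shown as sequences were picked after their values were seen. Lists are described by counts and medians. Alternatives were other scalings, pseudocounts and filters, voom on recovered reads, trends on merged exon length and GC removed, all 8 libraries, a replicate block and leaving out each library. Promoter sequences were RefSeq's. Some genes and lists are not reported here.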

Additional observations from a re-analysis of the deposited data

Results flagged for a closer look

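The ratio of IP to input differed between the media for several genes described in the text. The test was that of the difference itself (limma over 8 libraries, Benjamini-Hochberg adjusted). Values are the glucose-free minus complete log2 change with the SE. These genes were named for large glucose-free changes, which form 1 side of that difference. The ratio was higher without glucose for MYH9 (3.504 ± 0.77, adjusted p = 0.0390), ACTN4 (3.35 ± 0.62, 0.0224), MYH14 (3.17 ± 0.60, 0.0249) and DBN1 (2.91 ± 0.68, 0.0469), which also differ between the 2 glucose-free IPs. It was higher for PPP1R9B (1.97 ± 0.35, 0.0195), whose 2 IPs are close, and for the transcription factors MAFG (1.93 ± 0.28, 0.00844) and ZNF865 (1.85 ± 0.40, 0.0380).

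RPL39 had a lower ratio without glucose, at -4.34 ± 1.01 (adjusted p = 0.0460). In complete medium it was listed at 7.85 ± 1.78 RPKM in the inputs and 6.99 ± 8.67 in the IPs (SD, n = 2), against 2106 and 2159 RPKM in the glucose-free inputs. The tables were deposited separately for the 2 media, and the part of that in the gap was not tested. SNORD46 also had a lower ratio without glucose (-4.56 ± 0.54, limma adjusted p = 0.00359). It was listed at 0 in the complete-medium inputs and IPs, so that difference rests on the glucose-free values alone.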

How the results depend on the processing

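Against 3881 genes higher and 4138 lower, a minimum of 5 RPKM gave 1492 and 2256 (fewer genes tested), RPKM as deposited 8369 and 747, and at least 1 RPKM in both means, chosen after seeing the data, 657 higher. The 4-fold rule left 318 and 1311, and 1384 and 1700 with voom. Higher genes made up 48.4% of calls, but 91.8% as deposited, 61.7% with upper quartile scaling and 36.7% with centring. Leaving out 1 library gave 3531 to 3720 higher and 3891 to 3968 lower, with a lone library assumed to vary like the others. The replicate block gave 3873 and 4149. Same-numbered deviations of input and IP correlated at 0.131 across tested genes. With 2 libraries a side this can neither show nor exclude a pairing of the libraries. The block moved the call of 1 named gene, NDUFS1 (-0.29, limma adjusted p = 0.0467).

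Of 124 named genes, several changed sign, and the cause was not tested beyond the shift of the median. As deposited, values above 0 were CSNK2B 1.10, DLL3 0.21, EIF3D 2.26, FDPS 0.084, HDAC1 1.44, HOXC9 1.45, ID2 1.52, ID3 1.11, MLX 0.45, NDUFS1 1.31, PHGDH 1.17, RPL3 1.41, RPL4 0.92, RPL5 0.72, RIOK2 0.69, RUVBL2 0.19, SIRT6 1.14 and SLC25A5 0.27. Quantile normalization gave EIF3D 2.32, EIF4EBP1 0.13, PHGDH 0.26, RPL3 2.63, RPL4 1.60, RPL5 1.51, RPS2 0.53, TMSB10 1.35, SLC25A5 0.94 and EIF2AK4 -0.030. Centring gave EIF3D 0.35, EIF2AK4 -0.40, MRPL53 -0.23 and PDP2 -0.28, upper quartile scaling EIF3D 0.10 and NDUFS1 0.035, and removal of the trends EIF2AK4 -0.23 and POLE -0.039. Pseudocounts of 0.1 and 5 moved no call among the named genes.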

Other observations

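Genes of DNA replication fell in 33 of 47 and rose in 4, with a median of -0.76 that was 1.55 with RPKM as deposited. RPA3, the small subunit of the single-strand binding protein, had 12.3 and 12.9 RPKM in the inputs and 6.505 and 6.38 in the IPs and fell by 3.26 ± 0.10 on the log2 scale, while POLE, the catalytic subunit of DNA polymerase epsilon, rose by 0.92 ± 0.13. Histones made in S phase, whose mRNAs end in a stem-loop and mostly carry no poly(A) tail, fell in 44 of 46, with a median of -2.31 that was 0.06 as deposited. Genes of protein entry into the ER fell in 21 of 33 and rose in 3 (median -1.15, 1.27 as deposited). SSR4, of the translocon-associated complex, fell by 4.88 ± 0.09 and OST4, a very small subunit of oligosaccharyltransferase, stood at -4.34 ± 0.14.

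In lipid synthesis 13 of 31 genes rose and 9 fell. An input mean under 1 RPKM was seen for 14 of the 31. Among the 17 with at least 1 RPKM in both means 6 rose and 7 fell. FASN, fatty acid synthase, had 3.74 RPKM in both inputs and 121 and 110.05 in the IPs (2.10 ± 0.14), and FDPS, of the mevalonate pathway, fell by 2.17 ± 0.10. HECT and giant ubiquitin ligases rose in 17 of 20 with 1 fall, and 19 of the 20 had an input mean under 1 RPKM; 10 rose and 3 fell once the trends were removed. The solute carriers rose in 66 of 100 and fell in 18; 71 had an input mean under 1 RPKM, and among the other 29 genes 13 rose and 11 fell. SLC7A1, which carries cationic amino acids, rose by 2.70 ± 0.10, and the ADP/ATP carrier SLC25A5 stood at -2.45 ± 0.10. At the limit of 1 RPKM, RIOK2 was just inside with a mean of 1.0001 RPKM and CNOT7 just outside with 0.999 RPKM.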
